A study of Homo sapiens with 12 samples.

Results

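The genes described here are 42 human splicing factor genes in esophageal squamous carcinoma cells treated with THZ1. They were chosen by name and not by their values, and comprise 13 SR protein genes, 6 splicing kinase genes, 14 hnRNP genes and 9 genes of SF3A, SF3B and U2AF. All were found, under 43 of the 57755 gene identifiers in the expression tables, because SRSF8 stands under a pair of overlapping identifiers. KYSE510 and TE7 are lines derived from this carcinoma. Cells took THZ1 either at 50 nM, collected after 2, 4, 6 or 12 h, or at 200 nM, collected after 6 h, and control cells received the vehicle DMSO. Each line gave 1 polyadenylated RNA library in each of the 6 conditions, 12 in all, so the lines stood in as replicates and the p-values cover no spread other than that among these libraries. The DMSO libraries are titled 0 h while their time label reads 12 h, and no DMSO library is labelled 2, 4 or 6 h, so hours in THZ1 and hours of handling or culture cannot be told apart. The values are FPKM, fragment numbers scaled to transcript length and to the library's total. They are relative to each library, and their sum differed between libraries.

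Splicing removes introns from new transcripts while RNA polymerase II is still at work. SR proteins bind exonic enhancers and help define exons, while hnRNPs coat nascent RNA and often work against exon inclusion. The kinases of the CLK and SRPK families phosphorylate the serine and arginine repeats of SR proteins, and U2AF and the SF3 subunits of the U2 snRNP recognise the 3′ end of the intron. THZ1 binds CDK7 covalently, a kinase of the polymerase's C-terminal domain, and also reaches CDK12 and CDK13. Many SR protein and hnRNP genes and the CLK genes are known to keep their own level through spliced forms with an unproductive exon or a retained intron. Gene-level FPKM add all such forms together.

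Promoter sequences are shown for 4 genes called at 12 h of 50 nM, as examples of both directions: CLK2 and SRSF3, which fell, and TRA2B and U2AF2, which rose. Each window runs from 250 bases before to 50 bases after the RefSeq start on GRCh38.p14, 5′ to 3′ on the gene's strand. Capitals mark matches on either strand to the CCAAT box (CCAAT or ATTGG), the TATA box (TATAAA or TTTATA), the CRE core (TGACG or CGTCA), the E-box (CACGTG) and an ETS motif (CCGGAAG or CTTCCGG).
CLK2, chr1:155273455-155273754, minus strand: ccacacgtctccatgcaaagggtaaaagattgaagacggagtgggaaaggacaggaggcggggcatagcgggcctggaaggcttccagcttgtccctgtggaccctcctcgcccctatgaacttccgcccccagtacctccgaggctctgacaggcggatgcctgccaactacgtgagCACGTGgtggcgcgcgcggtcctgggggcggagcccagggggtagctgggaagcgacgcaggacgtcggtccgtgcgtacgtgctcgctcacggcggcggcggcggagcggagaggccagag
SRSF3, chr6:36594112-36594411, plus strand: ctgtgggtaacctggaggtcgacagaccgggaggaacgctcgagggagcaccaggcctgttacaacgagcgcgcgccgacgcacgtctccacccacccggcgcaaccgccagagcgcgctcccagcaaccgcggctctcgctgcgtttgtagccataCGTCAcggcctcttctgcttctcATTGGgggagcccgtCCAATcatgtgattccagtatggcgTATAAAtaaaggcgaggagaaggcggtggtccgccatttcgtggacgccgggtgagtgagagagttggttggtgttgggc
TRA2B, chr3:185937965-185938264, minus strand: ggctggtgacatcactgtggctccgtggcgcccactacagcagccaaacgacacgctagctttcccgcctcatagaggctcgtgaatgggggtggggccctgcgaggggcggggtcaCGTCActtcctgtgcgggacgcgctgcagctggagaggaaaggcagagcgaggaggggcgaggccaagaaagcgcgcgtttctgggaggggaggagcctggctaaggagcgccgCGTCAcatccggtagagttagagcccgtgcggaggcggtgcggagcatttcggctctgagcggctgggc
U2AF2, chr19:55654785-55655084, plus strand: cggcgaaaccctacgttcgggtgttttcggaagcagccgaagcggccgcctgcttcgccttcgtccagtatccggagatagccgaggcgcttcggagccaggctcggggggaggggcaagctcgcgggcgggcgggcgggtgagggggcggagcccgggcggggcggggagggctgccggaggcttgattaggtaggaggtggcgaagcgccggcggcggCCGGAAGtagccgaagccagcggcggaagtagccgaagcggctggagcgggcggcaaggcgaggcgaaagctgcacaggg

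The RefSeq table held 55 such windows for 38 of the 42 symbols; HNRNPA1, SF3B3, SRSF2 and TRA2A have no entry. A CCAAT box stood in 13 of the 21 hnRNP windows, in 3 of the 14 SR protein windows and in 0 of the 9 SF3 and U2AF windows, against 34.6% of all 35116 windows. The ETS motif stood in 6 of the 9 SF3 and U2AF windows, in 2 of the 14 SR protein windows and in 2 of the 21 hnRNP windows, against 10.3% of all windows. The other shares over all windows were 11.5% for the TATA box, 24.6% for the CRE core, which also lies inside the full site TGACGTCA, and 7.26% for the E-box. Several windows belong to 1 gene and overlap, so these counts describe letters and not bound sites.

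FPKM summed to 383975 to 535976 in KYSE510 and 459201 to 729515 in TE7, and 11685 to 13982 genes reached 1 FPKM. Over genes, r between DMSO and the 2 h library was 0.879 in KYSE510 and 0.976 in TE7, and the 200 nM libraries reached at most 0.865 with any other library of their line. The KYSE510 DMSO library and both 200 nM libraries thus stand apart. Counts against DMSO are also given without the KYSE510 DMSO library, while no comparison of 200 nM can be made without the 200 nM libraries. Mitochondrial genes took 8.88% of FPKM in TE7 DMSO, 12.93% to 27.29% in TE7 at 50 nM and 0.04% in TE7 at 200 nM, and at most 0.14% in KYSE510. Their part in the results was not tested. The 11 squamous epithelial markers summed to at least 2328 FPKM in every library, but single keratins differed widely between libraries of 1 line. In KYSE510, KRT6A stood at 1500 to 1809 FPKM at 50 nM and 930.0 FPKM at 200 nM, against 14.4 FPKM in DMSO, KRT19 at 540.4 to 691.7 FPKM at 50 nM and 0.85 FPKM at 200 nM, against 11.0 FPKM in DMSO, and KRT14 at 449.0 to 563.7 FPKM at 50 nM and 2.62 FPKM at 200 nM, against 28.7 FPKM in DMSO. Every contrast that uses these KYSE510 libraries carries these differences too, and their part in the results was not tested. The 5 leukocyte and 3 endothelial markers found stayed under 1 FPKM in all 12. The 9 fibroblast or mesenchymal markers summed to 7.75 to 22.4 FPKM in KYSE510 and 4.54 to 8.59 FPKM in TE7, with VIM, COL1A2, LUM and PDGFRB under 1 FPKM throughout. Of that list FN1 stood at 0.25 to 0.57 FPKM at 50 nM, against 13.8 FPKM in DMSO, in KYSE510, COL1A1 lay between 6.62 and 8.66 FPKM in all KYSE510 libraries, and THY1 and COL3A1 reached 7.63 and 4.21 FPKM in KYSE510 at 200 nM. The upper 95% bound that the authors' tables give lay a median of 3.37% to 4.19% above the value over the splicing factor genes of a library, a counting error only.

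In DMSO the hnRNP genes had the highest FPKM and the kinases the lowest. The hnRNP median was 234.6 FPKM in KYSE510 and 224.4 FPKM in TE7, that of the SR protein genes 99.4 and 120.9 FPKM, that of the SF3 and U2AF genes 84.0 and 93.7 FPKM, and that of the kinases 17.9 and 29.2 FPKM, KYSE510 first. HNRNPA2B1, an RNA-binding protein of the nuclear hnRNP core, stood at the top with 775.7 FPKM in KYSE510 and 1121 FPKM in TE7. HNRNPA0 had the lowest mean of the hnRNP genes, at 112.6 FPKM in KYSE510 and 63.5 FPKM in TE7. SRSF2, an activator of exon inclusion also called SC35, led the SR protein genes by mean at 202.9 FPKM in KYSE510 and 199.6 FPKM in TE7, level with SRSF5 at 183.0 and 219.2 FPKM. CLK4 was the lowest gene of all, at 3.81 FPKM in KYSE510 and 4.96 FPKM in TE7, and SRSF8 (ENSG00000180771) came next at 4.06 and 5.82 FPKM. All 43 identifiers passed the filter of at least 1 FPKM in at least 2 libraries, and the lowest value of any in any library was 2.96 FPKM.

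**Figure D1:**
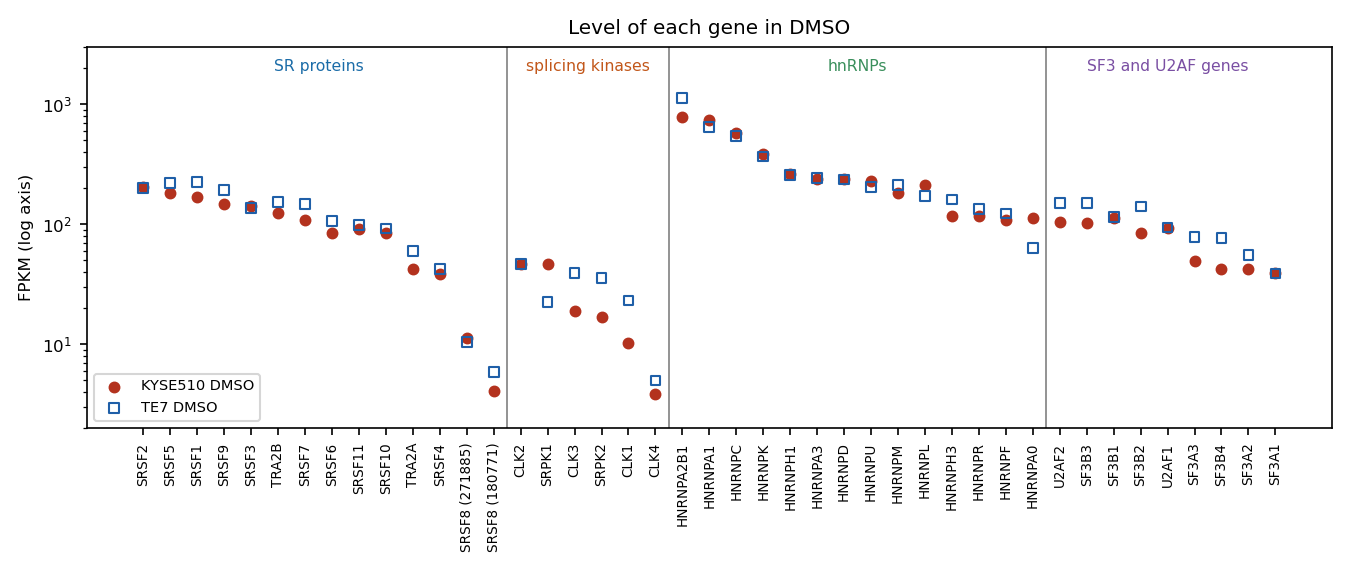
FPKM of each splicing factor identifier in the DMSO libraries (log axis), by family and ordered by the mean of KYSE510 (red circles) and TE7 (blue squares). hnRNP genes lie between 63.5 and 1121 FPKM, and the kinases between 3.81 and 46.5 FPKM.

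At 50 nM few of the genes changed, and they changed in both directions. Changes are differences of log2(FPKM + 1), as means over both lines with the limma standard error, and a gene was called at a limma adjusted p under 0.05 over all 15610 genes tested. After 2 h 0 of 43 identifiers were called, with 0.0128% of all tested genes called, and after 4 h 0 of 43, with 0.0769% of all; 7 had an unadjusted p under 0.05 at each time. After 6 h 1 fell, CLK2, with 4.71% of all genes called and 4.02% lower. After 12 h 3 rose (TRA2B, CLK1 and U2AF2) and 5 fell (CLK2, SRSF1, SRSF3, SF3B3 and SRSF6), 18.6% of the identifiers against 28.4% of all genes, of which 3.27% rose and 25.2% fell. The median change at 12 h was -0.06 over the identifiers and -0.42 over all tested genes.

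At 200 nM for 6 h every called identifier fell on the deposited scale. Against DMSO 25 of 43 fell and 0 rose, 58.1% against 38.5% of all genes (3.22% higher, 35.3% lower), with medians of -0.81 and -0.65. Against 50 nM at the same 6 h 25 fell and 0 rose, 58.1% against 24.8% of all genes (2.94% higher, 21.9% lower), with medians of -0.91 and -0.46. The size of this difference does not use the DMSO libraries, but its calls do, through the spread that all 12 libraries share. The contrasts with DMSO share their control libraries, so their values stand side by side only. Without the KYSE510 DMSO library 4 fell and 0 rose at 12 h (23.8% of all genes fell), 22 fell at 200 nM against DMSO (34.3% of all) and 0 were called at 6 h (2.27% of all). Most of the 25 calls between the doses were lost without either library at 50 nM for 6 h, a fit with 1 library in that group. The share of all genes called in those fits is not given here, so the loss cannot be set against that of all genes.

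**Figure D2:**
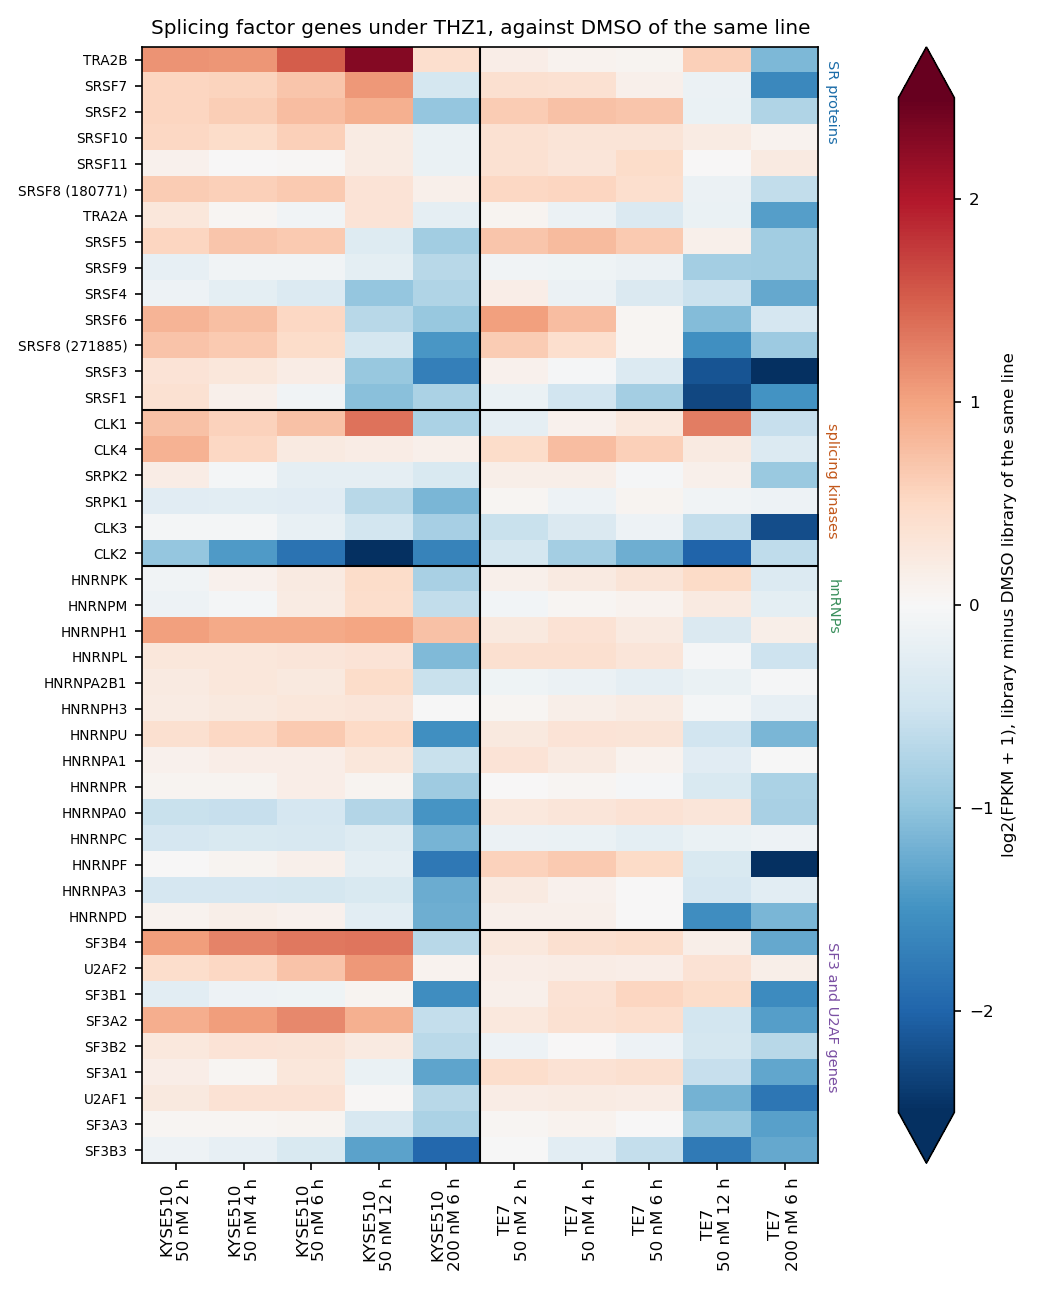
Difference of log2(FPKM + 1) between each THZ1 library and the DMSO library of the same line for the 43 identifiers, by family and ordered by the mean change at 12 h; colours saturate beyond 2.5. CLK2 darkens towards 12 h in both lines, TRA2B is reddest in KYSE510, and the 200 nM columns are mostly blue.

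These directions depend on scaling, because the median of all tested genes itself moved. Median-of-ratios scaling, which aligns libraries on the ratios of 9134 genes, moved that median from -0.42 to -0.04 at 12 h, from -0.65 to -0.04 at 200 nM against DMSO and from -0.46 to 0.01 at 200 nM against 50 nM. After it 11 identifiers rose and 3 fell at 12 h, beside 9.46% and 12.7% of all genes. At 200 nM 5 rose and 4 fell against DMSO, beside 12.0% and 13.3% of all genes, and 1 rose and 9 fell against 50 nM, beside 9.82% and 8.63%. With upper-quartile scaling 24 rose and 1 fell at 12 h, beside 18.8% and 7.08% of all genes. At 200 nM 6 rose and 2 fell against DMSO, beside 18.5% and 8.87%, and 1 rose and 8 fell against 50 nM, beside 10.7% and 7.84%. The median of all tested genes was then 0.28 at 12 h, 0.19 at 200 nM against DMSO and 0.05 against 50 nM. Both scalings thus raised values as a whole in these comparisons. A fall could lose its call under them, while a rise could hardly do so, so a rise that held says little. The genes below are described on the deposited scale, with the calls that survived.

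**Figure D3:**
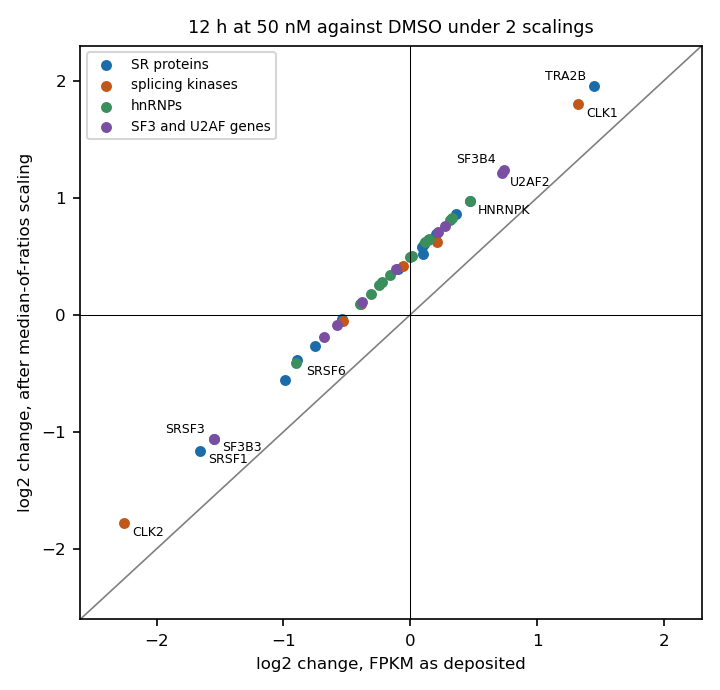
Change of each identifier after 12 h at 50 nM against DMSO, on FPKM as deposited (horizontal, log2) and after median-of-ratios scaling (vertical, log2), with families in colour and the line of equal values in grey. All points lie above that line, and 12 identifiers stay below 0 on both axes, among them CLK2, SRSF1, SRSF3 and SF3B3.

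Among the kinases, CLK2 fell and CLK1 rose. The CLK genes encode dual-specificity kinases of the nucleus that phosphorylate SR proteins and release them from speckles. CLK2 (chromosome 1, 155232659 to 155248282 on hg19) stood in KYSE510 at 46.2 FPKM in DMSO, at 23.2, 16.7, 12.1 and 7.26 FPKM after 2, 4, 6 and 12 h at 50 nM, and at 13.8 FPKM at 200 nM. The TE7 libraries held 46.5 FPKM in DMSO, 34.1, 25.2, 19.3 and 10.9 FPKM over the same hours, and 29.6 FPKM at 200 nM. Every THZ1 library lay below the DMSO library of its line, and each later 50 nM library below the one before. The change was -1.54 ± 0.25 at 6 h (limma adjusted p = 0.0223) and -2.26 ± 0.25 at 12 h (limma adjusted p = 0.00144), or 0.157-fold in KYSE510 and 0.235-fold in TE7 at 12 h. The 12 h call held under both scalings and without any single library; the 6 h call was lost without the KYSE510 DMSO library (-1.21), without either 2 h, 4 h or 6 h library (-1.58 to -1.49) and under upper-quartile scaling (-1.12).

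The dose did not order the CLK2 values. At 200 nM it fell by 1.15 ± 0.25 on the log2 scale against DMSO (limma adjusted p = 0.00875), and both 200 nM libraries lay above the 50 nM library of their line at 6 h. The difference between 200 and 50 nM was 0.38 ± 0.25 (limma adjusted p = 0.285) on the deposited scale and passed the threshold at 1.02 after median-of-ratios and 1.06 after upper-quartile scaling. It was the single identifier of 43 with a positive value in that comparison. Under those scalings its fall at 200 nM against DMSO was -0.38 and -0.06 and no longer called. HCN3, an expressed gene, overlaps CLK2 in the tables.

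CLK1 (chromosome 2, 201717732 to 201729422) stood in KYSE510 at 10.3 FPKM in DMSO, at 17.7, 15.8, 17.7 and 27.9 FPKM after 2, 4, 6 and 12 h at 50 nM, and at 5.49 FPKM at 200 nM. In TE7 it stood at 23.1 FPKM in DMSO, at 19.5, 24.8, 28.0 and 57.5 FPKM, and at 15.0 FPKM at 200 nM. The 12 h library was the highest of each line and the 200 nM library the lowest. The rise at 12 h was 1.32 ± 0.29 (limma adjusted p = 0.013), or 2.71-fold in KYSE510 and 2.49-fold in TE7, and against 2 h it was 1.07 ± 0.29 (limma adjusted p = 0.0346). The 12 h call was lost without the KYSE510 DMSO library (1.14) and without the TE7 12 h library (1.19), and the call against 2 h without any 1 of the 8 libraries at 50 nM (0.67 to 1.47). At 200 nM CLK1 fell against 50 nM by 1.19 ± 0.29 on the log2 scale (limma adjusted p = 0.0211), a call lost under both scalings (-0.58 and -0.55).

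The other kinases did not pass the threshold at 50 nM. CLK3 stood in KYSE510 at 18.9 FPKM in DMSO, 18.3 to 13.4 FPKM at 50 nM and 10.1 FPKM at 200 nM, and in TE7 at 39.1 FPKM, 25.7 to 35.9 FPKM and 7.61 FPKM. Both 200 nM libraries were the lowest of their line, and CLK3 fell there by 1.53 ± 0.34 on the log2 scale against DMSO (limma adjusted p = 0.0104), without a call under either scaling (-0.78 and -0.48) or without the TE7 DMSO library (-1.30). CLK4 lay between 3.81 and 7.82 FPKM in KYSE510 and between 3.72 and 9.14 FPKM in TE7, and was called nowhere. SRPK1 and SRPK2, which phosphorylate SR proteins mainly in the cytoplasm, changed by -0.39 ± 0.26 and -0.06 ± 0.24 at 12 h and by -0.64 ± 0.26 and -0.66 ± 0.24 at 200 nM against DMSO, all uncalled.

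**Figure D4:**
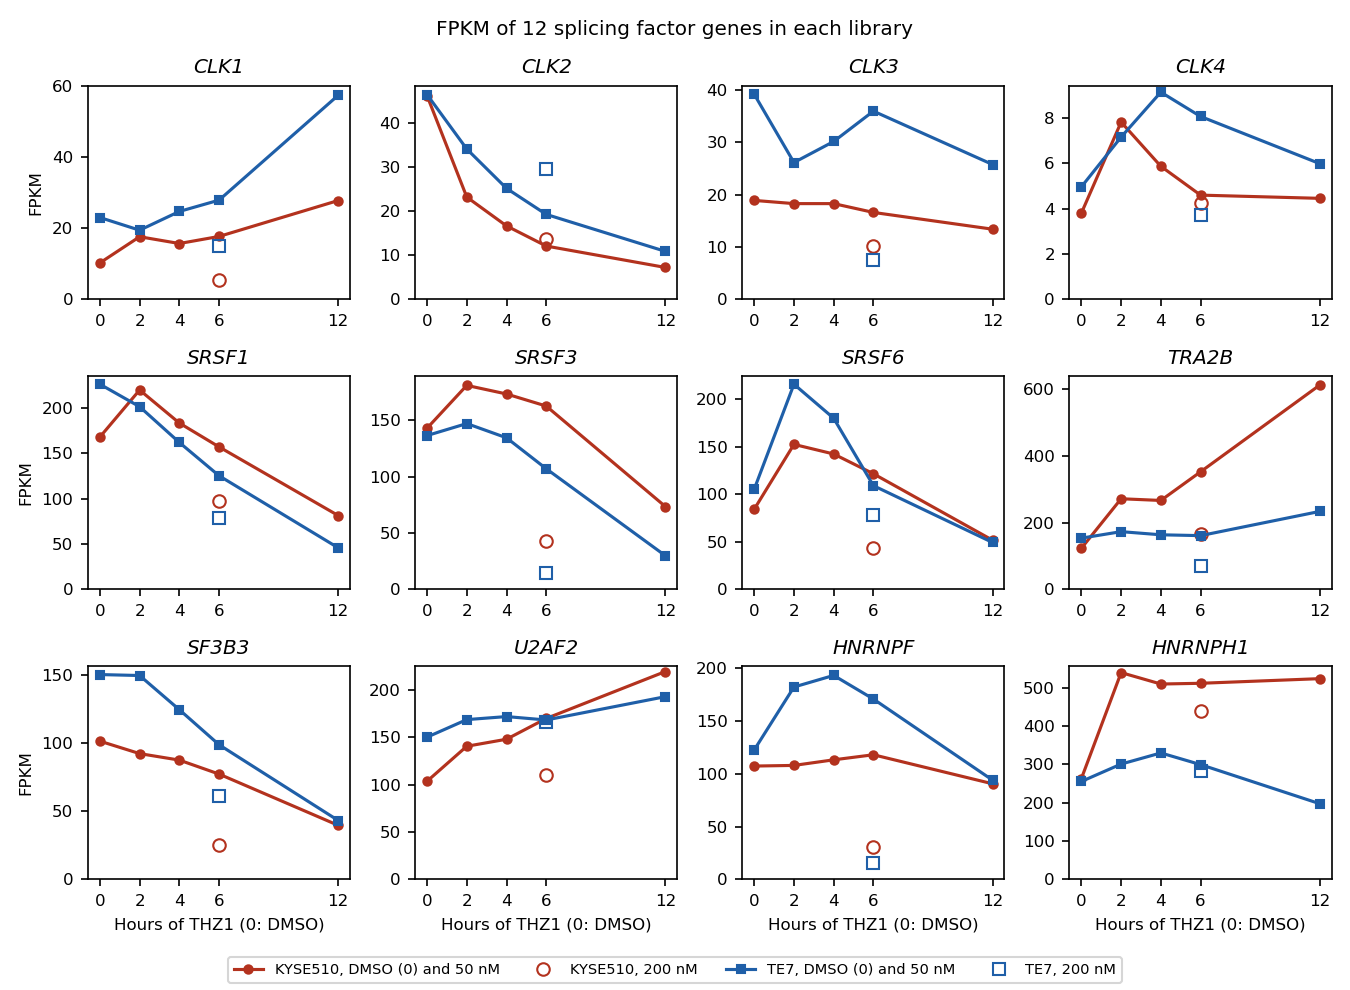
FPKM of 12 genes in every library against hours of THZ1, with DMSO drawn at 0, filled symbols joined for DMSO and 50 nM and open symbols for 200 nM at 6 h, in KYSE510 (red) and TE7 (blue). CLK2 goes down and CLK1 up at 12 h in both lines, and the SRSF1, SRSF3 and SRSF6 lines end at their lowest 50 nM value at 12 h.

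Among the SR protein genes a set of 3 fell late at 50 nM. SRSF3 (chromosome 6, 36562145 to 36573377), the smallest SR protein, with roles in splicing and mRNA export, stood in KYSE510 at 142.8 FPKM in DMSO, at 180.7, 173.1, 162.4 and 73.4 FPKM after 2, 4, 6 and 12 h, and at 42.9 FPKM at 200 nM. In TE7 it stood at 136.3 FPKM in DMSO, at 146.9, 134.3, 106.9 and 29.9 FPKM, and at 14.7 FPKM at 200 nM. In both lines the 200 nM library was lowest and the 12 h library next. The change at 12 h was -1.55 ± 0.35 against DMSO (limma adjusted p = 0.0148) and -1.77 ± 0.35 against 2 h (limma adjusted p = 0.0124). The call against 2 h was lost without either 2 h library or the TE7 12 h library, and under upper-quartile scaling (-0.85). The 12 h call against DMSO was lost without the TE7 DMSO library (-1.18) or the TE7 12 h library (-1.20), and under both scalings (-1.06 and -0.61).

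SRSF1 (chromosome 17, 56080721 to 56084707), the SR protein also called ASF/SF2 and a factor of both constitutive and alternative splicing, stood in KYSE510 at 168.0 FPKM in DMSO, at 219.8, 183.4, 157.1 and 81.4 FPKM over 2, 4, 6 and 12 h, and at 97.3 FPKM at 200 nM. TE7 had 226.2 FPKM in DMSO, 201.4, 162.0, 125.3 and 45.9 FPKM, and 79.3 FPKM at 200 nM. The 12 h library was the lowest of all 6 in each line. It fell by 1.66 ± 0.27 on the log2 scale at 12 h (limma adjusted p = 0.00431), to 0.485-fold in KYSE510 and 0.203-fold in TE7. The call held after median-of-ratios scaling (-1.16) and without any single library, and was lost under upper-quartile scaling (-0.71). An expressed long gene, RP11-159D12.5, overlaps SRSF1 in the tables.

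SRSF6 (chromosome 20, 42086568 to 42092245), an enhancer-binding SR protein, was high first and low later. In KYSE510 it stood at 84.4 FPKM in DMSO, at 152.6, 142.5, 121.7 and 51.8 FPKM over 2, 4, 6 and 12 h, and at 43.5 FPKM at 200 nM. In TE7 it stood at 105.5 FPKM in DMSO, at 215.9, 180.1, 109.2 and 49.4 FPKM, and at 78.1 FPKM at 200 nM. The 2 h library was the highest of each line and the 12 h library the lowest at 50 nM. Its value at 2 h against DMSO, 0.94 ± 0.25, was the largest positive one of the 43 and was not called (limma adjusted p = 0.302), while the fall at 12 h against 2 h was -1.82 ± 0.25 (limma adjusted p = 0.00417), a call lost without the TE7 2 h library and under upper-quartile scaling (-0.90). The fall at 12 h against DMSO, -0.89 ± 0.25 (limma adjusted p = 0.0333), lost its call in 8 of the 12 fits that left out a library (-1.10 to -0.67), and under upper-quartile scaling the value was 0.05.

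Over the family, counts by time stood as follows. At 2 h 11 of 14 SR protein identifiers lay above DMSO in both lines, against 27 of 43 identifiers in all and 24.7% of all tested genes. At 12 h 9 of 14 had their lowest 50 nM library in both lines, against 2 of 14 hnRNPs, 6 of 9 SF3 and U2AF genes and 50.9% of all tested genes, and 5 of 14 had their highest 50 nM library at 2 h in both lines (35.7%), near the 37.5% of all tested genes. At 12 h against 2 h 5 of 14 fell, with SRSF8 (ENSG00000271885, -1.67 ± 0.35) and SRSF5 (-0.72 ± 0.17) beside SRSF1, SRSF3 and SRSF6. In that comparison 7 of 43 identifiers fell and 1 rose, 18.6% against 21.9% of all genes (1.88% higher, 20.0% lower). Of these 8 all but SRSF5 stayed called after median-of-ratios scaling, where 6 identifiers rose and 6 fell, beside 6.72% and 7.86% of all genes. After upper-quartile scaling 13 rose and 0 fell, beside 14.1% and 3.81% of all genes, and CLK1 alone of the 8 stayed called. The call of SRSF8 was not shared by its other identifier (-0.48 ± 0.25), which overlaps it, so the split of fragments between them is uncertain.

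TRA2B went the other way. Its product binds GAA-rich exonic enhancers and activates exons. TRA2B (chromosome 3, 185633694 to 185655924) stood in KYSE510 at 123.3 FPKM in DMSO, at 271.3, 266.2, 351.9 and 611.3 FPKM over 2, 4, 6 and 12 h, and at 165.8 FPKM at 200 nM. In TE7 it stood at 153.5 FPKM in DMSO, at 172.9, 163.5, 161.0 and 233.4 FPKM, and at 70.0 FPKM at 200 nM. The 12 h library was the highest of each line, by a wide margin in KYSE510. The rise at 12 h was 1.45 ± 0.38 (limma adjusted p = 0.024), 4.96-fold in KYSE510 and 1.52-fold in TE7, and the difference between lines could not be tested with 1 library each. The call was lost without the KYSE510 DMSO library (0.78), the KYSE510 12 h library (1.10) or the TE7 12 h library (1.80). Against 2 h the value was 0.80 ± 0.38 (limma adjusted p = 0.171). After both scalings TRA2B was called against DMSO (1.95 and 2.40) and against 2 h (1.32 and 1.73). The scalings raised 12 h values as a whole, so this says little on a rise.

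The remaining SR protein identifiers had 12 h values from -0.99 to 0.47 and were not called. SRSF4 (-0.75 ± 0.24) and SRSF9 (-0.54 ± 0.20) lay lower in both lines, and SRSF2 and SRSF7 lay apart between lines. SRSF7, a shuttling SR protein, stood at 228.8 FPKM at 12 h, against 107.6 FPKM in DMSO, in KYSE510, and at 133.4 FPKM, against 147.1 FPKM, in TE7. SRSF10 and SRSF11 stayed within 74.3 to 128.0 FPKM and 81.3 to 105.2 FPKM in KYSE510, and within 92.1 to 120.8 FPKM and 98.2 to 135.0 FPKM in TE7.

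At 200 nM 8 of 14 SR protein identifiers fell against DMSO, beside 35.3% of all genes, and 7 of 14 against 50 nM, beside 21.9%. SRSF3 had the lowest values, -2.42 ± 0.35 against DMSO (limma adjusted p = 0.00184), or 0.301-fold in KYSE510 and 0.108-fold in TE7, and -2.34 ± 0.35 against 50 nM (limma adjusted p = 0.00349). Both calls held under both scalings and without any single library. SRSF2, at 103.5 FPKM in KYSE510 and 117.4 FPKM in TE7 at 200 nM, against 347.9 and 323.1 FPKM at 50 nM, fell by 1.60 ± 0.30 on the log2 scale between the doses (limma adjusted p = 0.00813), a call lost under upper-quartile scaling (-0.89) and without either 50 nM library at 6 h (-1.62 and -1.57). SRSF5 fell by 1.54 ± 0.17 between the doses (limma adjusted p = 0.00121), to 0.342-fold in KYSE510 and 0.343-fold in TE7, and this call held under both scalings and without any single library. After median-of-ratios scaling 1 SR protein identifier fell against DMSO, SRSF3, and 2 rose, SRSF10 and SRSF11 (0.75 and 0.83). Together 21.4% of the family was called, beside 25.3% of all genes (12.0% higher, 13.3% lower).

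The hnRNP genes were called in 0 of 14 cases at 12 h, beside 28.4% of all genes. Their 12 h values ran from -0.90 for HNRNPD, a factor also known as AUF1 for its role in mRNA decay, to 0.47 for HNRNPK, which binds cytosine-rich RNA, and 2 had an unadjusted p under 0.05. HNRNPK stood at 528.6 FPKM at 12 h, against 383.9 FPKM in DMSO, in KYSE510, and at 509.7 FPKM, against 366.6 FPKM, in TE7. HNRNPD stood at 199.5 FPKM, against 239.2 FPKM, in KYSE510, and at 79.8 FPKM, against 235.4 FPKM, in TE7. After median-of-ratios scaling 5 hnRNP genes rose at 12 h, HNRNPK (0.97), HNRNPM (0.83), HNRNPH1 (0.81), HNRNPL (0.65) and HNRNPH3 (0.62), and 8 rose after upper-quartile scaling. These were 35.7% and 57.1% of the family, while 9.46% and 18.8% of all genes rose. Relative to all tested genes 13 of 14 lay above the median of -0.42.

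At 200 nM 7 of 14 hnRNP genes fell against DMSO, beside 35.3% of all genes, and 8 of 14 against 50 nM, beside 21.9%. The lines differed in size of change. Against DMSO the family's median was -1.0 in KYSE510, with -0.54 over all tested genes, and -0.3 in TE7, with -0.71 over all. In TE7 the hnRNP median thus lay above that of all tested genes. Between the doses it was -0.93 in KYSE510, with -0.45 over all, and -0.53 in TE7, with -0.4 over all. Without the KYSE510 DMSO library 4 of 14 fell against DMSO, 28.6% beside 34.3% of all genes. HNRNPF (chromosome 10, 43881065 to 43904614), which binds runs of G, fell furthest. It stood at 30.6 FPKM in KYSE510 and 15.9 FPKM in TE7 at 200 nM, against 118.2 and 171.0 FPKM at 50 nM for 6 h and 107.5 and 122.8 FPKM in DMSO. The other KYSE510 libraries held 90.7 to 113.4 FPKM and the other TE7 libraries 94.1 to 193.4 FPKM, so the 200 nM libraries lay outside the range of all others. The change was -2.33 ± 0.38 against DMSO (limma adjusted p = 0.00292) and -2.63 ± 0.38 against 50 nM (limma adjusted p = 0.00308), and both calls held under both scalings and without any single library.

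HNRNPU, a chromatin-bound scaffold protein, was the next hnRNP, with 79.1 FPKM in KYSE510 and 92.6 FPKM in TE7 at 200 nM, against 364.1 and 257.1 FPKM at 50 nM. Between the doses it fell by 1.83 ± 0.29 on the log2 scale (limma adjusted p = 0.00427), which held under both scalings and was lost without the KYSE510 library at 50 nM for 6 h (-1.75). An antisense gene, HNRNPU-AS1, overlaps it. HNRNPH1, a close relative of HNRNPF, stood at 439.5 FPKM in KYSE510 and 284.2 FPKM in TE7 at 200 nM, against 263.3 and 255.7 FPKM in DMSO (0.44 ± 0.28, limma adjusted p = 0.241), and its value without the KYSE510 DMSO library was 0.04. HNRNPA1, with 76 named copies of which 6 reached the filter, HNRNPA2B1 and HNRNPC, the most abundant hnRNPs, had 200 nM values of -0.28, -0.30 and -0.64 against DMSO, all uncalled. After median-of-ratios scaling 1 hnRNP gene fell against DMSO, HNRNPF (-1.54), and 2 rose, HNRNPH1 (1.25) and HNRNPH3 (0.70). Together 21.4% of the family was called, beside 25.3% of all genes.

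Among the genes that act at the branch and 3′ splice sites, SF3B3 fell and U2AF2 rose at 12 h. SF3B3 (chromosome 16, 70557691 to 70608820), a scaffold subunit of SF3B, stood in KYSE510 at 101.6 FPKM in DMSO, at 92.5, 87.7, 77.4 and 39.8 FPKM over 2, 4, 6 and 12 h, and at 25.4 FPKM at 200 nM. TE7 values were 150.5 FPKM in DMSO, 149.8, 124.7, 98.95 and 43.3 FPKM, and 61.1 FPKM at 200 nM. Every THZ1 library lay below DMSO, and the 50 nM values went down with each time. The fall at 12 h was -1.55 ± 0.26 (limma adjusted p = 0.00482), held after median-of-ratios scaling (-1.06) and without any single library, and was lost under upper-quartile scaling (-0.62).

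U2AF2 (chromosome 19, 56165512 to 56186081), which binds the polypyrimidine tract, stood in KYSE510 at 103.6 FPKM in DMSO, at 140.5, 147.9, 169.8 and 219.3 FPKM over 2, 4, 6 and 12 h, and at 110.6 FPKM at 200 nM. In TE7 it stood at 150.1 FPKM in DMSO, at 168.6, 171.8, 168.2 and 192.8 FPKM, and at 166.0 FPKM at 200 nM. DMSO was the lowest library of each line and 12 h the highest. The rise at 12 h was 0.72 ± 0.22 (limma adjusted p = 0.0441) and lost its call in 9 of the 12 fits without a library (0.47 to 0.97). It stayed called after both scalings (1.21 and 1.66), which raised 12 h values as a whole and so say little on a rise. Its partner U2AF1, which reads the AG at the splice site and has a named copy that was also expressed, had -0.58 ± 0.34 at 12 h (limma adjusted p = 0.237). SF3B4 had the family's highest 12 h value, 0.74, and was not called. It stood at 109.0 FPKM at 12 h, against 42.25 FPKM in DMSO, in KYSE510, and at 84.36 FPKM, against 76.31 FPKM, in TE7.

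SF3B1, the largest SF3B subunit and the part that holds the branch site, was close to its DMSO level at 12 h and low at 200 nM. It stood at 37.8 FPKM in KYSE510 and 37.6 FPKM in TE7 at 200 nM, against 105.2 and 167.5 FPKM at 50 nM for 6 h and 113.4 and 114.4 FPKM in DMSO. The 200 nM libraries were the lowest of both lines by a wide margin. The 12 h value was 0.27 ± 0.21 (limma adjusted p = 0.379), and the fall at 200 nM was -1.57 ± 0.21 against DMSO (limma adjusted p = 0.00136), a call that held after median-of-ratios (-0.78) but not after upper-quartile scaling (-0.46).

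At 200 nM 8 of the 9 SF3 and U2AF genes fell against DMSO, beside 35.3% of all genes, and 8 of 9 against 50 nM, beside 21.9%, all but U2AF2 in both cases. Between the doses the log2 change was -1.86 ± 0.27 for SF3B4 (limma adjusted p = 0.00304), -1.79 ± 0.21 for SF3B1 (limma adjusted p = 0.00149), -1.79 ± 0.29 for SF3A2 (limma adjusted p = 0.0044) and -1.64 ± 0.21 for SF3A1 (limma adjusted p = 0.00205). These 4 calls also held under both scalings, and that of SF3A2 was lost without the KYSE510 library at 50 nM for 6 h (-1.75). The family's median between the doses was -1.52, against -0.46 over all tested genes, and -0.86 against 0.01 after median-of-ratios scaling. Against DMSO, SF3B1 and SF3B3 (-0.83) were the members that still fell after median-of-ratios scaling, and U2AF2 rose (0.92), while after upper-quartile scaling 0 of 9 fell and U2AF2 rose (1.24). The family's shares called were then 33.3% and 11.1%, beside 25.3% and 27.3% of all genes.

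**Figure D5:**
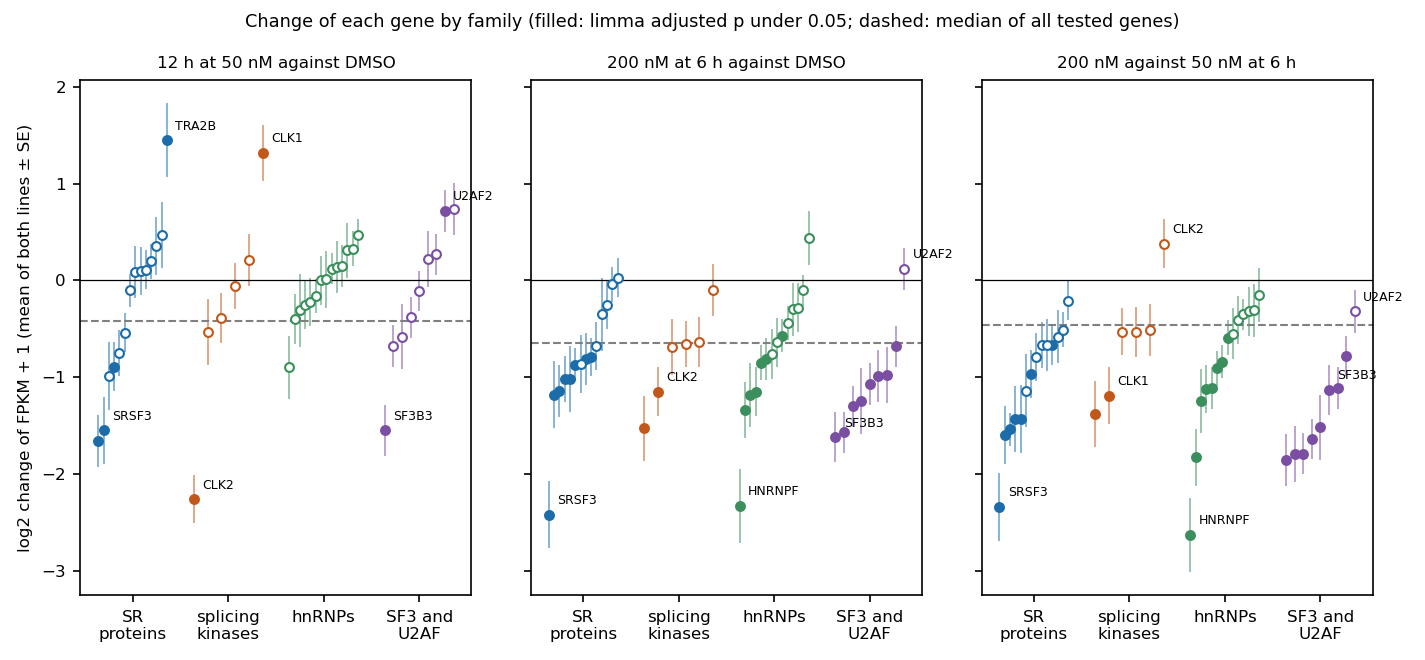
Mean log2 change of FPKM + 1 over both lines (points, bars ± SE) for every identifier by family, after 12 h at 50 nM against DMSO, at 200 nM for 6 h against DMSO, and at 200 nM against 50 nM at 6 h; filled points have a limma adjusted p under 0.05 and the dashed line is the median of all tested genes. SRSF3 and HNRNPF are lowest at 200 nM, and 8 of 9 SF3 and U2AF genes are filled.

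The summed FPKM of a family weighs its most abundant genes and is not scaled to the library's total, which differed between libraries. SR protein FPKM summed to 1432 in DMSO, 2003, 1981, 2058 and 1984 after 2, 4, 6 and 12 h at 50 nM, and 944.3 at 200 nM in KYSE510. In TE7 the sums were 1689 in DMSO, 2163, 2074, 1858 and 1309 over the same hours, and 891.9 at 200 nM. On this scale the 200 nM sum was the lowest in each line. At 12 h the sum lay above DMSO in KYSE510 and below it in TE7. The library total in TE7 was 604963 FPKM in DMSO, 729515 FPKM at 12 h and 459201 FPKM at 200 nM. Of it, all splicing factor identifiers together took 1.197%, 0.846% and 1.141%, the 12 h share being the lowest of the line. Mitochondrial genes took 8.88%, 27.29% and 0.04% of the same totals, and the splicing factor shares move with that part too. Shares of the total without mitochondrial genes were not computed, so these shares give no order of the TE7 conditions free of it. In KYSE510 the splicing factor identifiers took 1.335%, 1.564% and 1.061%, the 200 nM share being the lowest. Shares by family were not computed. SF3 and U2AF genes summed to 380.1 in KYSE510 and 474.6 in TE7 at 200 nM, against 882.6 and 978.5 at 50 nM for 6 h.

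Between the lines, 5 of the 6 kinases differed on the deposited scale and 3 after upper-quartile scaling. Over the 6 conditions 14 of 43 identifiers differed between KYSE510 and TE7, 4 higher and 10 lower in KYSE510, or 32.6% against 46.3% of all genes (17.5% higher, 28.9% lower). SRPK2 ran from 12.7 to 19.4 FPKM in KYSE510, against 18.1 to 39.3 FPKM in TE7 (-1.04 ± 0.14, limma adjusted p = 0.00116). CLK1 was lower in KYSE510 (-0.80 ± 0.17, limma adjusted p = 0.00659), and SRPK1 higher, at 20.4 to 46.4 FPKM, against 20.2 to 23.4 FPKM in TE7 (0.62 ± 0.15, limma adjusted p = 0.0118). HNRNPH1 ran from 263.3 to 539.7 FPKM in KYSE510, against 197.7 to 330.1 FPKM in TE7 (0.72 ± 0.16, limma adjusted p = 0.00942), with 263.3 and 255.7 FPKM in DMSO. These 4 calls held under both scalings and without any single library, while that of CLK3 was lost in 10 of the 12 fits without a library (-0.83 to -0.54) and that of CLK2 in 4 (-0.66 to -0.45). The lines grew in different media, which cannot be told apart from the line. The 6 libraries of a line are 6 conditions and not replicates of the line. The p-values between the lines thus cover no spread between repeat cultures.

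Other splicing genes, from lists of 129 genes with 124 tested, were called in both directions at 12 h and only lower at 200 nM on the deposited scale. At 12 h 15 rose and 22 fell (12.1% and 17.7%), beside 3.27% and 25.2% of all genes, and at 200 nM against DMSO 0 rose and 64 fell (51.6%), beside 3.22% and 35.3%. In fits added after the data were seen, 40 rose and 5 fell at 12 h and 17 rose and 23 fell at 200 nM after median-of-ratios scaling. After upper-quartile scaling 60 rose and 4 fell at 12 h and 34 rose and 13 fell at 200 nM, and without the KYSE510 DMSO library 9 rose and 18 fell and 1 rose and 54 fell. Of the 22 genes of the catalytic steps 0 rose and 2 fell at 12 h (9.09%), while 17 fell at 200 nM (77.3%), with a median of -1.51. After median-of-ratios scaling 10 fell at 200 nM (45.5%, median -0.82). After upper-quartile scaling 5 fell and 2 rose there (22.7% and 9.09%, median -0.52). SNW1, a component of the catalytic spliceosome, stood at 12.5 FPKM at 200 nM, against 47.8 FPKM in DMSO, in KYSE510, and at 4.93 FPKM, against 57.1 FPKM, in TE7 (-2.57 ± 0.43, limma adjusted p = 0.00304). CWC22, which links the spliceosome to the exon junction complex, changed by -2.30 ± 0.25 at 200 nM (limma adjusted p = 0.000692). Of the 16 genes of the U4/U6.U5 tri-snRNP 4 fell at 12 h (25.0%) and 9 at 200 nM (56.2%). DDX23, a helicase, fell furthest of them at 12 h (-1.86 ± 0.23, limma adjusted p = 0.00198). Of the 13 tested Sm and LSm genes 3 fell at 12 h (23.1%) and 4 at 200 nM (30.8%), with a median of -0.20 at 200 nM. Beside these lists 25.2% and 35.3% of all genes fell.

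Among 47 other splicing regulators 11 rose (23.4%) and 10 fell (21.3%) at 12 h, and 24 fell at 200 nM (51.1%). Of all genes 3.27% rose and 25.2% fell at 12 h, and 35.3% fell at 200 nM. RBM5, a regulator of alternative splicing, stood at 7.68 FPKM at 12 h, against 23.3 FPKM in DMSO, in KYSE510 and at 6.95 FPKM, against 36.0 FPKM, in TE7 (-1.85 ± 0.23, limma adjusted p = 0.00184). ESRP1, an epithelial splicing regulator, was among those that fell at 200 nM, to 0.565 FPKM, against 43.0 FPKM in DMSO, in KYSE510 and to 9.34 FPKM, against 49.1 FPKM, in TE7 (-3.55 ± 0.82, limma adjusted p = 0.012). The U1 snRNP list had 1 gene higher and 2 lower of 10 at 12 h (10.0% and 20.0%) and 5 lower at 200 nM (50.0%). The list of other U2 and branch-site genes had 3 higher and 1 lower of 16 at 12 h (18.8% and 6.25%) and 5 lower at 200 nM (31.2%).

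Gene span and DMSO level were also set against the changes. Across the 43 identifiers, which share all libraries, Spearman's rho between gene span and change was -0.32 at 2 h, -0.04 at 12 h and 0.03 at 200 nM against DMSO, and between the DMSO level and change it was -0.13, 0.11 and 0.14, given as a description.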

How the data were processed

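Polyadenylated RNA from KYSE510 and TE7 cells was sequenced as TruSeq libraries, per the labels' protocols. The authors deposited 1 table of gene FPKM with 95% bounds per library, per the file headers. STAR, Cufflinks and hg19 are named in the submitters' processing notes; no version, annotation or strand setting is given there. FPKM keep no read counts, and a change in the total RNA of a cell would not show in them.

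The 57869 lines of a table held 57755 gene identifiers, of which 108 stood at several loci and were summed. The 15610 genes that reached 1 FPKM in 2 or more libraries were fitted as log2(FPKM + 1) with limma 3.58.1 in R 4.3.3, with intensity trend, a term for each of the 6 conditions and the cell line as block. A fold change on this scale understates the change of low genes. Adjusted p-values are Benjamini-Hochberg over all genes tested, two-sided, with a threshold of 0.05. Contrasts were each THZ1 condition against DMSO, 200 nM against 50 nM at 6 h, 12 h against 2 h at 50 nM, and KYSE510 against TE7. The fit was tested on simulated data. Pairing comes from the shared cell line, and deviations of same-line libraries from their condition means correlated at r = 0.317 to 0.959.

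The genes and lists were chosen with earlier results of these data known. Genes named with values were, in each contrast and family, at most the 4 with the largest change per direction past the threshold, those at either end of the level or change, the 4 CLK genes, and at most 2 per direction of each other list; SRSF4, SRSF7, SRSF9, SRSF10 and SRSF11 were also named after their values were seen. Coordinates are hg19, 1-based, from the deposited tables. Promoters were matched by symbol in RefSeq. Alternatives were the pseudocount (0.1 and 5), the filter (none, or a mean of 5 FPKM), no block, upper-quartile and median-of-ratios scaling, and leaving out each library or the 3 that stand apart. The values of 1 gene of the other splicing lists are not reported here.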

Additional observations from a re-analysis of the deposited data

Results flagged for a closer look

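SRSF7 was the 1 gene in which the lines moved in opposite directions by at least 0.5 on the log2 scale at 12 h against 2 h of 50 nM THZ1. KYSE510 held 228.8 FPKM at 12 h, against 155.6 FPKM at 2 h, a change of 0.55. TE7 held 133.4 FPKM at 12 h, against 195.5 FPKM at 2 h, a change of -0.55. With 1 library for each line and time the difference between lines was not tested.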

How the results depend on the processing

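Leaving out 1 library at a time gave 0 to 3 called genes at 2 h, 0 to 5 at 4 h, 0 to 4 at 6 h, 4 to 12 at 12 h, 15 to 28 at 200 nM against DMSO, 6 to 27 at 200 nM against 50 nM, 0 to 13 at 12 h against 2 h and 6 to 17 between the lines. The lowest counts came without TE7 DMSO for 200 nM against DMSO (15), without KYSE510 6 h at 50 nM for the doses (6), without TE7 2 h for 12 h against 2 h (0; 1 without KYSE510 2 h), and without either 6 h library for the lines (6). Without a filter 5 genes were called at 12 h and 15 at 200 nM against DMSO. Without the replicate block, which follows the cell line, 0 were called at 6 h, 2 at 12 h, 10 at 200 nM against DMSO, 13 between the doses and 2 at 12 h against 2 h. Without the 3 libraries that stand apart 18 were called at 12 h against 2 h and 24 between the lines. Identifiers were called there less often than all genes, at 44.2% and 55.8% against 55.2% and 68.4%. DMSO keeps 1 library in that setting, and the identifiers' median change against it was 0.12 at 4 h, 0.15 at 6 h and -0.12 at 12 h. The medians of all tested genes were -0.14, -0.21 and -0.49. For the fits without 1 library, the filter or the block, the share of all genes is not given beside the counts above. Median-of-ratios scaling gave 14 at 12 h, 9 at 200 nM against DMSO and 10 between the doses, beside 22.2%, 25.3% and 18.4% of all genes. Upper-quartile scaling gave 2 at 6 h, 25 at 12 h, and 8 and 9 in the same dose comparisons. These stood beside 2.2%, 25.9%, 27.3% and 18.5% of all genes. It also gave 13 (all higher) at 12 h against 2 h and 9 between the lines, beside 17.9% and 44.1%. Values below turned sign in results called on the deposited scale, after the scaling, or both, and the cause was not tested.

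After median-of-ratios scaling the log2 change at 200 nM against DMSO was 0.12 for SF3B2, 0.70 for HNRNPH3, 0.01 for SRSF9, 0.23 for HNRNPK and 0.75 for SRSF10; between the doses it was 0.08 for HNRNPM, and at 12 h against 2 h 0.51 for HNRNPH3. After upper-quartile scaling the 12 h change was 0.83 for SF3B2, 0.84 for SRSF5, 0.05 for SRSF6, 0.79 for HNRNPR, 0.85 for SRPK2 and 0.95 for HNRNPA1. At 200 nM against DMSO it was 0.44 for SF3B2, 1.02 for HNRNPH3, 0.68 for HNRNPM, 0.25 for SRSF5, 0.31 for HNRNPL, 0.12 for SF3A2, 0.33 for SRSF9, 0.10 for SRSF7, 0.07 for SRSF4, 0.27 for HNRNPR, 0.11 for SF3B4, 0.29 for TRA2A, 0.55 for HNRNPK, 0.03 for SF3A3 and 1.07 for SRSF10. Between the doses it was 0.12 for HNRNPM and 0.04 for SRSF9, and at 12 h against 2 h 0.74 for SF3B2, 0.93 for HNRNPH3, 0.21 for SRSF5, 0.79 for SRSF11, 0.73 for HNRNPR and 0.67 for SRSF10. Over the 81 results of single genes called on the deposited scale and all alternatives, 1212 values kept direction and call, 405 kept the direction without a call and 20 turned sign. These 20 were 4 after median-of-ratios and 16 after upper-quartile scaling. The other values listed, 3 and 13, were not called on the deposited scale but only after the scaling. The depth is not known from FPKM.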
